A study of Pan troglodytes with 38 samples.

Results

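The nuclear genes of respiratory complex I were examined in the post-mortem hearts of 38 chimpanzees by RNA-seq. Members were taken by symbol, as every gene of the annotated count table whose symbol begins with NDUFA, NDUFB, NDUFC, NDUFS, NDUFV or NDUFAF, which gave 47 of 31373 genes. They comprise 37 subunits (7 core and 30 accessory), 8 assembly factors named NDUFAF, and the gene pair NDUFA4 and NDUFA4L2, which was kept apart. All 47 passed the expression filter of each comparison below. No human counterpart was analysed here, because the columns of the human counts match no sample of the series.

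The samples are pieces of heart tissue, 1 library per animal, from 22 females and 16 males. The labels give no further groups, and the conditions below come from the study's sample table matched on the sample title. RNA of 21 animals was extracted in 2018, in a single batch, and RNA of the other 17 in an earlier year, in 4 batches (the earlier animals below). All 17 earlier libraries had been published before, so extraction year and new against published libraries cannot be told apart. The study also states that previously described libraries were sequenced again for depth, and its counts of such libraries differ between passages. Some animals are close relatives, so they are not fully independent. The tissue is whole heart muscle in which cell types were not separated, and in such samples fewer cells of a type and less RNA per cell cannot be told apart.

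Totals on orthologous exons, which set the library size, ran from 14408012 to 81603350 with a median of 41226040. The smallest raw count of any member in any animal was 122 for an assembly factor and 374 for a subunit, so counting error is small beside the differences between animals. Mitochondrially encoded genes took between 17.2% and 60.1% of the counts of the gene table, and the 8 animals at 40% or more were all of 2018. All 16 cardiomyocyte markers were detected, with a summed level between 18862 and 203390 CPM, and the lowest sums were in 2018. The animals 537 and Little_R stand apart with low levels of most members, and results that rest on them are given with and without them.

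Complex I, or NADH:ubiquinone oxidoreductase, is the entry point of the respiratory chain. It passes electrons from NADH to ubiquinone and pumps protons across the inner mitochondrial membrane, and heart muscle, which beats without pause, is rich in it. Its matrix arm holds the N module, which oxidises NADH, and the Q module, which reduces ubiquinone. The membrane arm holds the ND1, ND2, ND4 and ND5 modules, built around subunits that the mitochondrial genome encodes. Assembly factors help to build the complex and are not part of the finished enzyme.

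The core subunits carry the flavin and the iron-sulfur clusters, and their levels, in CPM (counts per 1000000 orthologous exon counts, after TMM scaling), spanned a wide range between animals. NDUFV1, which binds NADH and the flavin, had a lowest level of 171 CPM, a median of 774 and a highest of 1317. NDUFV2, its iron-sulfur partner, lay between 101 and 489 CPM with a median of 298. NDUFS1, the largest iron-sulfur protein of the N module, ran from 24.8 to 815 CPM with a median of 445. The range of NDUFS1 was 32.8-fold, the widest of the 47 members, and its lowest animal was Little_R. It was 20.4-fold without Little_R and 7.75-fold without 537 and Little_R, where NDUFS5 had the widest range (9.60-fold).

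Near the ubiquinone site, NDUFS7, which carries the last iron-sulfur cluster before ubiquinone, lay between 103 and 756 CPM with a median of 369. NDUFS8 ran from 53.7 to 464 CPM (median 221) and NDUFS3 from 90.8 to 909 CPM (median 444). For each of the core subunits named here the lowest animal was 537 or Little_R. Over the 37 subunits the highest level was 3.45 to 32.8 times the lowest, and the SD between animals was 26.2% to 47.3% of the mean. Animal 537 was the lowest for 21 subunits, Little_R for 15 and animal 570 for 1. The highest place was shared more widely, by 4X0339 for 12 subunits, MD_And for 8, animal 438 for 7, animal 503 for 5, 4X0354 for 4 and animal 456 for 1. Levels of different genes are not ranked against each other here, because no transcript lengths of this annotation were used.

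**Figure D1:**
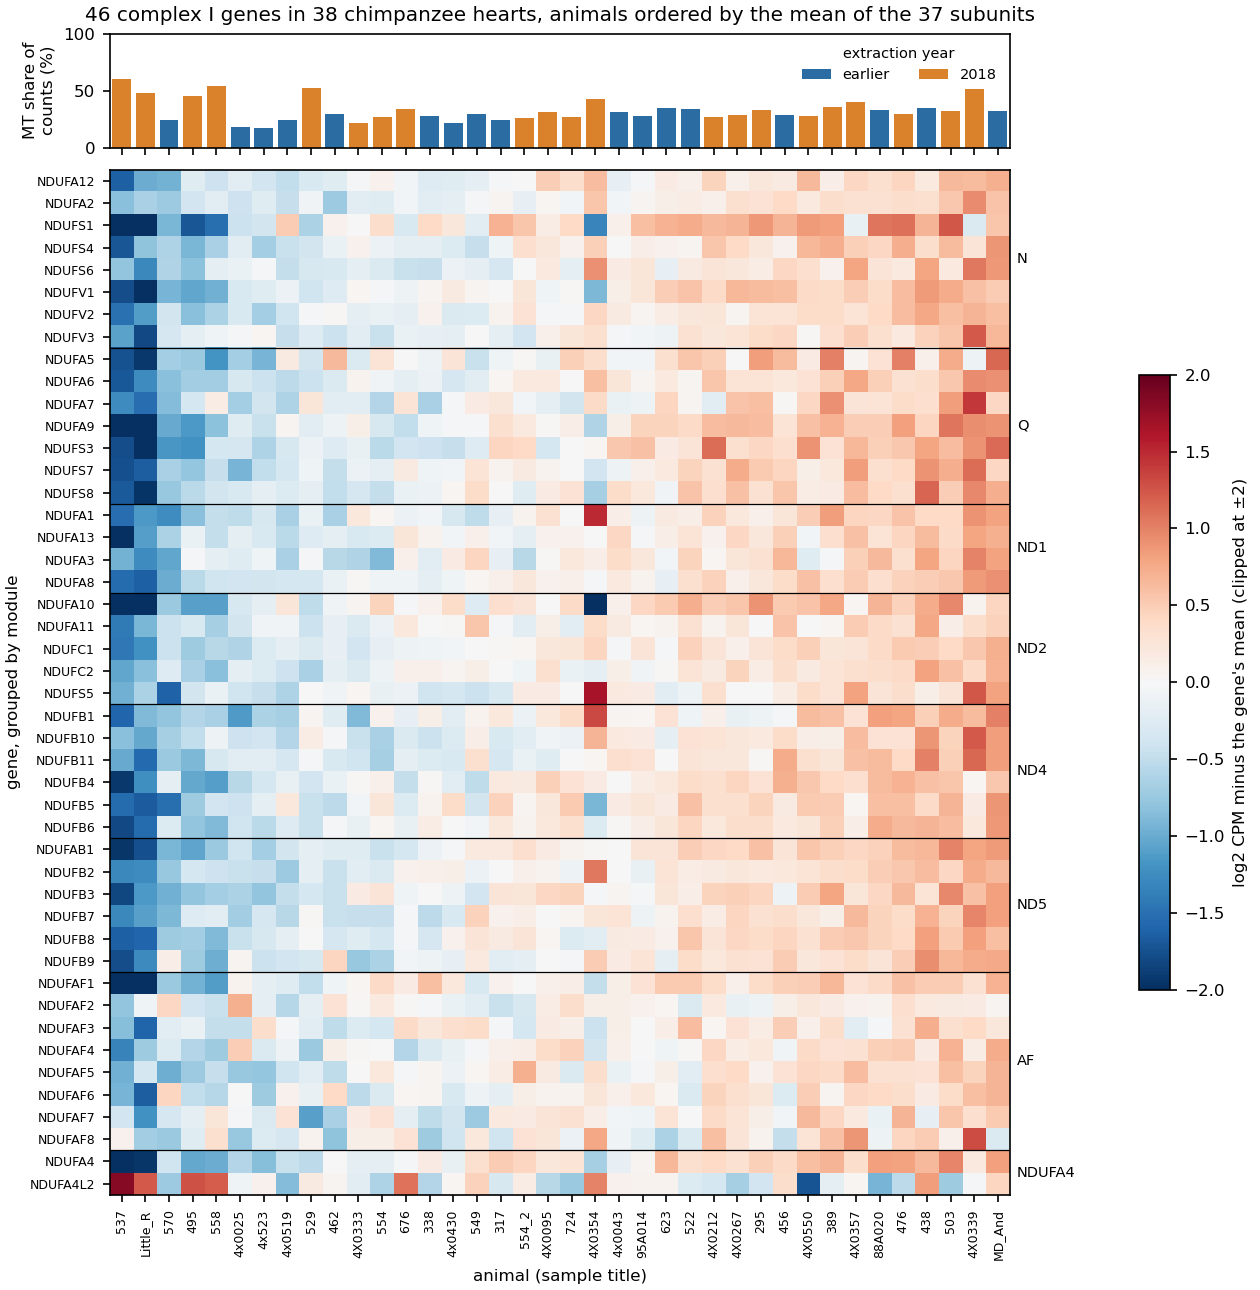
Each row of the heat map is 1 of 46 members and each column 1 of the 38 animals, ordered by the mean of the 37 subunits; colour is log2 CPM minus the gene's mean, clipped at ±2, and the bars above give the share of counts from mitochondrial genes by extraction year. Most rows pass from blue to red together from 537 on the left to MD_And on the right, while NDUFA4L2 is red in several animals on the left, and in 4X0354 NDUFS5 is red and NDUFA10 blue.

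The assembly factors varied less between animals than the subunits. NDUFAF1, which belongs to the assembly complex that builds the ND2 part of the membrane arm, lay between 18.4 and 145 CPM with a median of 99.2. NDUFAF2, a chaperone of late intermediates, ran from 9.06 to 25.6 CPM with a median of 16.3, the narrowest range of all members at 2.82-fold. Without 537 and Little_R its range was 2.43-fold, just above that of NDUFAF3 (2.36-fold). NDUFAF3 and NDUFAF4, partners in the assembly of the Q module, lay between 35.3 and 179 CPM (median 116) and between 25.5 and 107 CPM (median 66.8). The lowest animal was 537 or Little_R for NDUFAF1, NDUFAF2, NDUFAF3 and NDUFAF4.

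NDUFAF5 hydroxylates an arginine of NDUFS7 and lay between 17.4 and 56.1 CPM with a median of 36.1. NDUFAF6 ran from 8.30 to 41.4 CPM (median 27.2), and NDUFAF7, a methyltransferase, had a lowest level of 8.10 CPM and a median of 20.3, with a highest level 3.70 times the lowest. NDUFAF8, which works with NDUFAF5, lay between 39.0 and 170 CPM with a median of 72.1. Little_R was the lowest animal for NDUFAF6 and NDUFAF7, whereas the lowest for NDUFAF5 and NDUFAF8 were animals 570 and 462. Over the 8 genes the SD was 19.8% to 37.2% of the mean, with a median of 27.3%, against a median of 34.6% for the subunits. Without 537 and Little_R these medians were 24.8% and 30.5%.

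The subunits varied together across animals. Of 666 pairs of subunits, all 666 had a positive Pearson correlation of log2 CPM over the 38 animals and 655 had r of at least 0.5, with a median r of 0.812. The median was 0.843 within 2018 and 0.806 among the earlier animals, and 0.714 without 537 and Little_R. The closest pair was NDUFS1 and NDUFA10 with r = 0.963. The loosest pairs held NDUFS5, a small subunit of the ND2 module, with r = 0.227 against NDUFA10 and 0.311 against NDUFS1. Nuclear genes of complexes II to V were close to this, with a median r of 0.795 over 820 pairs, 753 of them at 0.5 or more. These values are descriptions over animals that share library depth and scaling, and no p is given for them.

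Pairs within a module were no closer than pairs across modules. The 102 pairs within a module had a median r of 0.791 and the 564 pairs across modules 0.813. Within modules the median ran from 0.717 in the ND2 module to 0.850 in the ND5 module, and it was 0.868 for the 21 pairs of core subunits. NDUFAB1, the mitochondrial acyl carrier protein that also sits in complex I, followed the mean of the other subunits most closely (r = 0.980), which was rank 1 of 15987 genes tested. The rank counts every gene of the year comparison, whose median r was -0.06. Next among the members were NDUFA8 (r = 0.969, rank 2) and NDUFC1 (r = 0.962, rank 5), and the 37 subunits had a median r of 0.898 with a lowest of 0.685 for NDUFS5.

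Outside the members, genes of the same organelle stood nearest, named here after their values were seen. SUCLG1, a subunit of succinyl-CoA ligase in the citric acid cycle, had r = 0.967 with the subunit mean, and COX5A of complex IV and UQCRC1 of complex III had r = 0.964 and r = 0.962. Nuclear genes of complexes II to V, in 41 rows of the table for 40 symbols because COX7C has a pair of rows, had a median r of 0.903. Over all 15987 genes tested 2586 had r of at least 0.5, and of the 41 rows 40 did. The exception was COX6A1, the form of its subunit used outside muscle, with r = -0.02. Among 11 regulators of nuclear respiratory genes the values split, from -0.67 for NRF1 and -0.62 for GABPB1 to 0.730 for PPARGC1A and 0.763 for ESRRB.

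As single genes the assembly factors followed the subunits less closely. Their median r with the subunit mean was 0.757, from 0.403 for NDUFAF2 and 0.430 for NDUFAF8 to 0.897 for NDUFAF1. Within 2018 the median was 0.834 and among the earlier animals it was 0.547, and for NDUFAF2 the values were 0.709 and -0.12. The difference between years was not tested. The mean of the 8 genes per animal followed the subunit mean with r = 0.953 and rho = 0.919. Among themselves the 28 pairs of assembly factors had a median r of 0.503, and the 11 further assembly factors outside the NDUFAF series, such as ACAD9 and TIMMDC1, had a median r of 0.828 with the subunit mean.

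**Figure D2:**
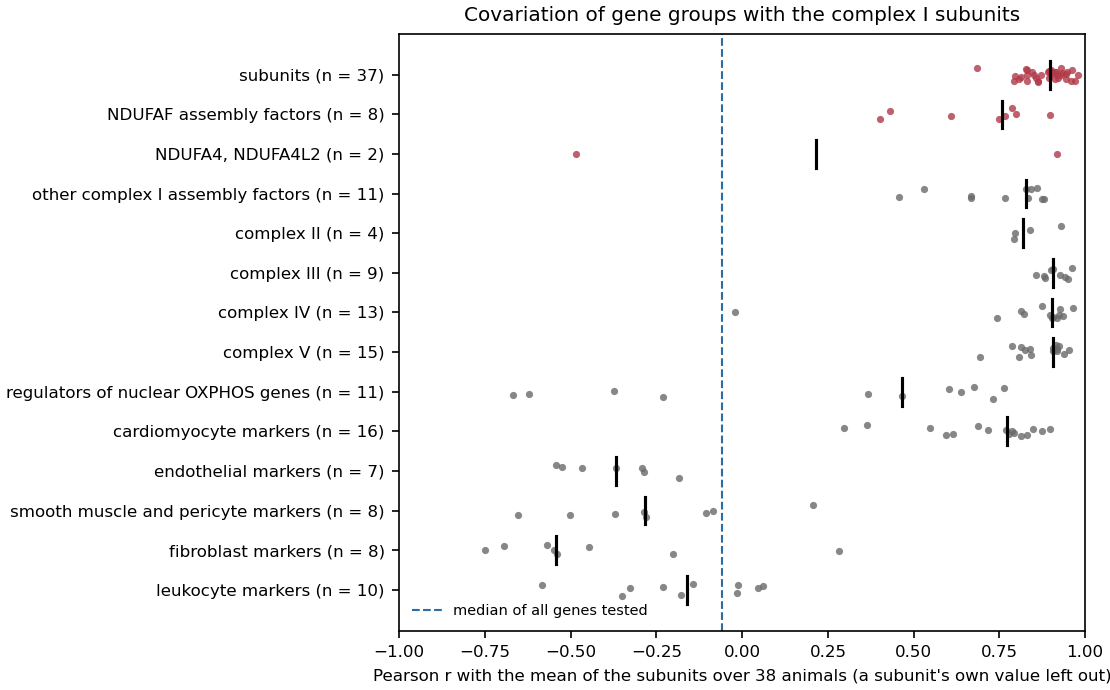
Each point is a gene, placed by its Pearson r with the mean of the complex I subunits over 38 animals (a subunit's own value left out), in rows by gene group, with the group median as a black line and the median of all 15987 genes as a dashed line. Subunits and complexes II to V lie near 0.9, cardiomyocyte markers have a median of 0.773, and fibroblast markers have a median of -0.54.

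Cell type markers moved with the subunits or against them to different degrees. Cardiomyocyte markers had a median r of 0.773 with the subunit mean over 16 genes, from 0.296 for MYH6 to 0.897 for MYBPC3, and 14 of the 16 had r of at least 0.5. Fibroblast markers had a median of -0.54 over 8 genes, from -0.75 for PDGFRA to 0.283 for POSTN. The median was -0.37 over 7 endothelial markers, -0.28 over 8 smooth muscle and pericyte markers, and -0.16 over 10 leukocyte markers. It was -0.28 over 5 Schwann cell markers, -0.19 over 3 erythrocyte markers and 0.041 over 4 adipocyte markers, against -0.06 over all genes. The endothelial median was -0.65 in 2018 and 0.157 among the earlier animals, and -0.16 without 537 and Little_R. That of smooth muscle and pericyte markers was -0.40 in 2018 and 0.171 among the earlier animals, whereas that of fibroblast markers was below 0 in both (-0.68 and -0.26). These differences between the years were not tested. The mean of the cardiomyocyte markers per animal followed the subunit mean with r = 0.878 and Spearman's rho = 0.833, with r = 0.941 in 2018 and 0.678 among the earlier animals. Without the 2 animals farthest from the median of the marker mean r was 0.770. Library depth moved with the subunits in 2018, where the subunit mean had r = 0.690 with the log2 of the library total, against -0.16 among the earlier animals. The part of cell type composition and of depth in the members' variation was not tested.

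For the partner subunits that the mitochondrial genome encodes, the relation to the subunit mean differed between the years. The summed level of the 7 MT-ND genes, scaled to nuclear totals, ran from 60282 to 452081 CPM. Over all animals the subunit mean had r = -0.19 and rho = 0.234 with the log2 of that sum. Among the earlier animals it was r = 0.790 and rho = 0.826 over 17 animals, and within 2018 it was r = -0.49 and rho = -0.13 over 21. Without 537 and Little_R, the 2 animals farthest from the median of that sum, the pooled r was 0.270 and rho was 0.451. The sign thus differs between the years of extraction. However, 537 and Little_R, both of 2018, had the lowest subunit means (-1.58 and -1.47) and the highest MT-ND sums (452081 and 422147 CPM). The value within 2018 without them was not computed, and the difference between years was not tested.

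The balance between subunits also shifted in a few animals. The SD of the 37 subunits within an animal, each centred on its own mean over animals, had a median of 0.232 (log2) and was highest in 4X0354 (0.753), Little_R (0.625) and 537 (0.484). In 4X0354, NDUFA10 of the ND2 module was at -2.10 relative to the animal's subunit mean on the log2 scale and NDUFS5 was at 1.53. In Little_R, NDUFS1 was at -2.32 and NDUFS5 at 0.84. NDUFS1 was the lowest subunit relative to the others in 5 of the 6 animals with the widest spread, which were Little_R, 537, 4X0339, 558 and 495.

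All 6 of those animals were of 2018 and had a mitochondrial share of 40% or more. The other animals at 40% or more, 529 and 4X0357, had spreads of 0.207 and 0.228, below the median of 0.232. Over all animals the spread had r = 0.533 and rho = 0.224 with the share. Without 537 and Little_R these were 0.385 and 0.099. The level of NDUFS1 relative to the other subunits had r = -0.73 with the mitochondrial share over all animals, -0.81 within 2018 and 0.120 among the earlier animals, and the level of NDUFS5 relative to the others had r = 0.596, 0.595 and -0.04. RIN, the RNA integrity number, was between 2.5 and 8.4 in these 6 animals, which is the full range of the series. Genes and animals in this comparison were picked after their values were seen, and the part of library depth or RNA state was not tested.

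NDUFA4, first listed as a complex I subunit and later placed in complex IV, lay between 321 and 3090 CPM with a median of 1811. Its paralog NDUFA4L2, which is induced by hypoxia, ran from 18.8 to 218 CPM with a median of 62.1. NDUFA4 followed the subunit mean (r = 0.917) and was lowest in 537. NDUFA4L2 was highest in 537 and had r = -0.48 with the subunit mean, rank 13300 of 15987 genes from the highest. Its r was -0.74 within 2018, 0.450 among the earlier animals and -0.22 without 537 and Little_R. Between the pair Pearson's r was -0.61 over 38 animals (permutation p = 0.0001, two-sided, adjusted p = 0.0002 over 4 relations) and rho was -0.40 (permutation p = 0.013). Within 2018 r was -0.82 over 21 animals (permutation p = 1e-05, the smallest that 100000 permutations can give, adjusted p = 4e-05) and rho was -0.71 (permutation p = 0.00054). Among the earlier animals r was 0.235 over 17 animals (permutation p = 0.36, adjusted p = 0.36) and rho was 0.164 (permutation p = 0.53). The relation was thus seen in 2018 and not among the earlier animals, and the difference between years was not tested.

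Leaving out 537 and Little_R, which are also the 2 animals farthest from the median of NDUFA4, gave r = -0.42 (permutation p = 0.012, adjusted p = 0.016) and rho = -0.30 (permutation p = 0.078). The pooled relation by rank therefore rests in part on those animals. Within 2018, r without the 2 farthest animals was -0.74.

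**Figure D3:**
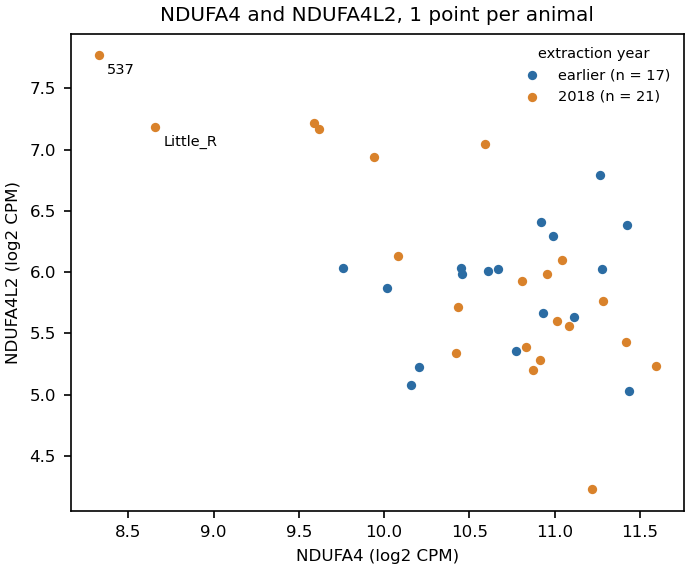
Each point is an animal, placed by its log2 CPM of NDUFA4 and of NDUFA4L2 and coloured by extraction year. The animals of 2018 run from 537 and Little_R, low in NDUFA4 and high in NDUFA4L2, down to the right (r = -0.82), and the earlier animals form a cloud with r = 0.235.

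Variability between animals was measured as dispersion, the residual of the natural logarithm of negative binomial overdispersion from its trend on mean expression, over 13108 genes that reached 6 CPM in 1 animal or more. The median over the 37 subunits was -0.02, close to -0.13 over all genes, and the values of the subunits ran from -0.69 to 1.07. The median over the 8 assembly factors was -0.51, below that of the subunits. With TMM library sizes the subunit median was 0.253 and that of the assembly factors -0.12, against -0.12 over all genes, so the place of the subunits relative to 0, and of both groups relative to all genes, depends on the scaling. Beside them, cardiomyocyte markers had a median of 0.537, fibroblast markers 2.01 and complexes II to V -0.05.

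The highest dispersion of the 47 members was that of NDUFA4L2, at 1.24 ± 0.27 (SE over 1000 redrawn sets of the animals), rank 1236 of 13108 from the top. NDUFS1 followed at 1.07 ± 0.35, NDUFA10 at 0.676 ± 0.36 and NDUFA9, a Q module subunit, at 0.549 ± 0.38. Without Little_R the values of NDUFS1, NDUFA10 and NDUFA9 fell to 0.743, 0.409 and 0.194. The lowest were NDUFAF2 at -1.50 ± 0.35 (rank 12688), NDUFAF7 at -0.70 ± 0.27, NDUFA2 of the N module at -0.69 ± 0.28 and NDUFC2 of the ND2 module at -0.68 ± 0.24. By module the median dispersion was highest in the Q module (0.178) and lowest in the ND2 module (-0.49), a difference within the spread of single members.

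**Figure D4:**
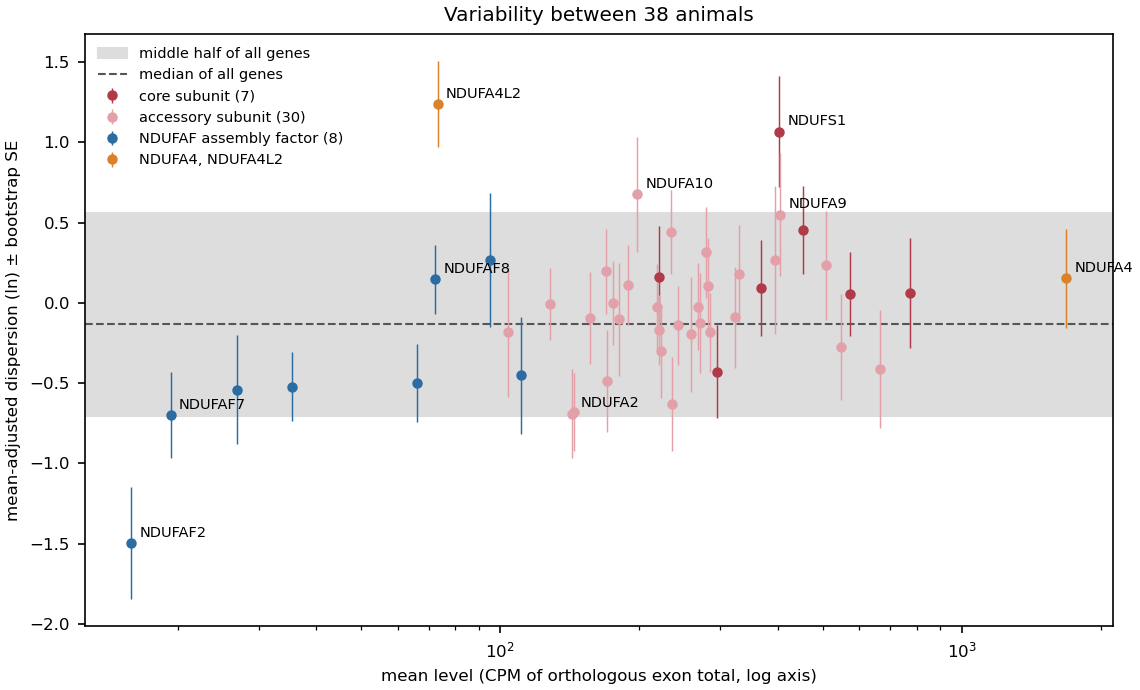
Each point is a member, with its mean level on a log axis and its dispersion on the vertical axis, with bars of 1 SE over redrawn sets of animals; the grey band holds the middle of all 13108 genes between their quartiles. NDUFA4L2 at 1.24, NDUFS1 at 1.07 and NDUFA10 at 0.676 lie above the band and NDUFAF2 at -1.50 lies below it.

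The first comparison asked whether the members differ between RNA extracted in 2018 and in the earlier year. All 7 virus-positive animals and the 1 exposed animal were of 2018, so extraction year is partly mixed with virus status. A single member, NDUFAF8, rose in 2018 by edgeR's quasi-likelihood test with sex in the model, against 16.5% of the 15987 genes tested (12.2% higher and 4.28% lower). NDUFAF8 lay between 39.0 and 97.8 CPM with a median of 54.0 in the earlier animals and between 42.3 and 170 CPM with a median of 81.6 in 2018. The years overlapped, although 20 of the 21 animals of 2018 were above the median of the earlier animals and 1 of the 17 earlier animals was above the median of 2018. The log2 fold change was 0.63 ± 0.13 (SE), with an edgeR adjusted p of 0.000756.

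Among the 21 Yerkes animals alone, NDUFAF8 had a mean of 55.6 CPM with an SD of 20.1 in the 9 earlier animals. In the 12 animals of 2018 its mean was 78.0 CPM with an SD of 12.5, and its log2 fold change of 0.47 no longer passed (edgeR adjusted p = 0.147). In that smaller set 1.65% of genes were called (1.47% higher). Over all 38 animals, 3 of 4 adipocyte markers rose in 2018 (median log2 fold change 2.46) and 4 of 10 leukocyte markers fell (median -0.98). Among the Yerkes animals 0 adipocyte markers and 1 leukocyte marker passed, and the part of these cell types in the difference was not tested.

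None of the 37 subunits passed between the years by edgeR or by DESeq2, and 1 had an unadjusted p under 0.05, against 30.9% of all genes. It was NDUFS5, with a median of 318 CPM in the earlier animals and 377 CPM in 2018. The subunits had 18 positive and 19 negative log2 fold changes (52% and 48% of all genes) with a median of -0.00061, against 0.02 over all genes, and a range of -0.21 to 0.37. The lowest of them was NDUFS1, at -0.21. The other assembly factors had values from -0.22 for NDUFAF3 to 0.26 for NDUFAF7, none past the test. NDUFA4 was at -0.11 and NDUFA4L2 at 0.32. When the gene total with mitochondrial genes set the scale, the median of all genes moved to -0.20 and that of the subunits to -0.14, and the genes called over the whole table changed from 1953 higher and 685 lower to 877 higher and 1505 lower.

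**Figure D5:**
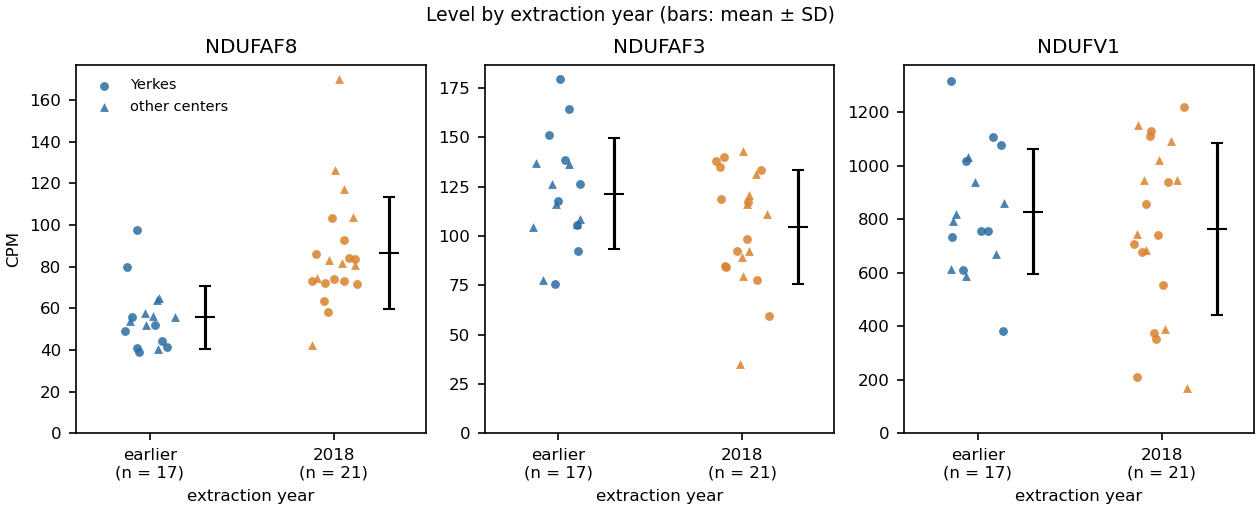
CPM of NDUFAF8, NDUFAF3 and NDUFV1 in each animal by extraction year, with circles for Yerkes animals, triangles for animals of other centers, and bars for the mean and SD of each year. NDUFAF8 has a mean of 86.5 CPM in 2018 and 55.7 CPM in the earlier animals, while the points of NDUFAF3 and NDUFV1 overlap across the years.

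RIN, which falls as RNA degrades, was tested as a slope with extraction year and sex in the model. No member passed by edgeR, against 0% of 16748 genes tested, while 22 of the 47 members had an unadjusted p under 0.05, against 13.8% of all genes. The slope was negative for 36 of the 37 subunits, against 48.2% of all genes (51.8% were positive), so that levels were lower where RIN was higher, with a median of -0.11 log2 units per unit of RIN against 0.0033 over all genes, and it was negative for all 8 assembly factors (median -0.07). NDUFS1 was the subunit with a positive slope (0.03). Because the members vary together, these counts of small unadjusted p and of like signs are not independent observations. The smallest p belonged to NDUFB10, a subunit of the ND4 module, with a slope of -0.17 ± 0.04 (SE, edgeR adjusted p = 0.132). Its level lay between 135 and 638 CPM with a median of 281, and its highest animal, 4X0339, had the lowest RIN of the series.

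By DESeq2, 3 members passed, NDUFB10, NDUFA3 and NDUFS5, with slopes between -0.18 and -0.17 and adjusted p between 0.0391 and 0.0445, against 1.02% of genes called (0.519% with a negative slope). The median slope of the subunits was -0.10 within 2018 and -0.15 among the earlier animals, with 36 of 37 negative in each year, and for a difference of slope between the years no member passed by edgeR or had an unadjusted p under 0.05. Without 537 and Little_R the median was -0.07 with 33 of 37 negative. With the gene total as scale it was -0.08 with 33 of 37 negative, and 9 members had an unadjusted p under 0.05, where 1080 of 16449 genes did. Adipocyte markers had negative slopes in 5 of 5 genes (median -0.77), fibroblast markers positive ones in 8 of 8 (median 0.27), cardiomyocyte markers a median of -0.11 and complexes II to V a median of -0.10, and their part in the slopes of the members was not tested.

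Age at death was recorded for 34 animals, from 10 to 57 years. No member passed by edgeR or DESeq2 in a model with extraction year and sex, against 0% of 16479 genes, and 3 members had an unadjusted p under 0.05, against 7.42% of all genes. All 37 subunits and all 8 assembly factors had a positive slope, against 44.9% of all genes (55.1% were negative), with medians of 0.10 and 0.05 log2 units per 10 years, against -0.01 over all genes. NDUFV2 had the smallest p, with a slope of 0.16 ± 0.06 (SE, edgeR adjusted p = 0.657), and NDUFS4, an accessory subunit of the N module, and NDUFC2 had slopes of 0.14 and 0.11. NDUFA4L2 alone among the members had a negative slope (-0.01). With the gene total as scale, 0 members had an unadjusted p under 0.05 by edgeR, where 2032 of 16296 genes did. The median slope of all genes moved to -0.06 on that scale.

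The median slope of the subunits with age was 0.06 within 2018, with 31 of 37 positive, and 0.15 among the earlier animals, with 37 of 37 positive. With RIN as a further covariate it was 0.15, and 27 subunits had an unadjusted p under 0.05, where 1684 of 16682 genes did. No member passed in that fit. The members vary together, so these counts of like signs are not independent observations. Cardiomyocyte markers had a positive slope in 15 of 16 genes (median 0.11) and leukocyte markers a negative one in 9 of 10 (median -0.21). Adipocyte markers had a positive slope in 5 of 5 genes (median 0.86), and the part of these cell types was not tested.

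Within 2018, the 7 animals noted as positive for hepatitis B or C virus were compared with the other 14, of which 1 is noted as exposed. All 7 came from the primate center SNPRC, which gave 1 of the other animals of 2018, so virus and center cannot be told apart. No member passed by edgeR or DESeq2, against 0% of 16536 genes, and 3 members had an unadjusted p under 0.05 by edgeR, against 2.3% of all genes. The log2 fold change was positive for 36 of the 37 subunits, against 45.6% of all genes (54.4% were negative), with a median of 0.31 against -0.03 over all genes. Because the members vary together, these counts are not independent observations. NDUFS5 had a median of 459 CPM (366 to 1152) in the positive animals and 367 CPM (188 to 641) in the others. The groups overlapped, and the highest value was that of 4X0354. Its log2 fold change was 0.59 ± 0.24 (SE, edgeR adjusted p = 0.9998).

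NDUFA4L2 went the other way, with 48.6 CPM (18.8 to 122) in the positive animals and 65.9 CPM (36.9 to 218) in the others, a log2 fold change of -0.71 ± 0.37 (SE, edgeR adjusted p = 0.9998). 537 and Little_R are among the others, with 218 and 145 CPM of NDUFA4L2. Without them the median of the subunits fell to 0.15 with 33 of 37 positive, and the value of NDUFA4L2 without them is not given here. Adipocyte markers had the largest shift of the marker lists in this comparison, with a median of 3.94 and 4 of 4 positive. Cardiomyocyte markers had a median of 0.30 and fibroblast markers of -0.68, and the median RIN was 4.6 in the positive animals and 5.55 in the others.

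Between males and females, with extraction year in the model, no member passed by edgeR or DESeq2, against 0.225% of 15987 genes by edgeR (0.156% higher in males and 0.0688% lower). 1 member had an unadjusted p under 0.05, against 8.52% of all genes. It was NDUFA7 of the Q module, with a median of 199 CPM (67.2 to 426) in males and 151 CPM (55.7 to 239) in females and a log2 fold change of 0.40 ± 0.17 (SE, edgeR adjusted p = 0.484). The subunits had 28 positive and 9 negative values (50.6% and 49.4% of all genes) with a median of 0.08, against 0.0025 over all genes. With the gene total as scale the split was 11 positive and 26 negative and the median of all genes moved to -0.12, so no direction of the group can be given for sex. Fibroblast markers had higher values in males in 8 of 8 genes (median 0.88), endothelial markers in 7 of 7 (median 0.30) and erythrocyte markers in 3 of 3 (median 1.37), none past the test, and their part was not tested.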

How the data were processed

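RNA-seq counts of 38 chimpanzee hearts were used. The authors captured polyadenylated RNA, aligned the reads with STAR 2.6.1b to Pan_tro 3.0 (Ensembl 95), and deposited a raw count per gene for 31373 genes and a featureCounts 1.6.3 count on 44125 orthologous exon rows, neither normalized. Symbols came from a table of gene identifiers, which matched 18040 genes. The 13 mitochondrially encoded genes were left out of the tests, and 52 per-sample columns of no sample of the series were not used. The authors' normalized matrix, which holds a standardized score, was not used here.

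The orthologous exon total was the library size, with TMM. Tests used edgeR 4.0.16 (filterByExpr, quasi-likelihood) over all genes, adjusted by Benjamini-Hochberg at 0.05, with DESeq2 1.42.0 as an alternative. A prior count of 0.5 was used for log2 CPM. Dispersion used a LOESS trend (degree 1, span 0.75). Analyses ran in R 4.3.3 and Python 3.11.15 and were tested on simulated data. P-values weigh an effect against the variation between these animals taken as independent, although some are close relatives.

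Members and lists were chosen with earlier results of these data known. Named with values are the core subunits (except 1 that is not reported here), NDUFAF genes, NDUFA4 and NDUFA4L2, members past a threshold, and the 4 highest and 4 lowest in dispersion. Any other gene with values was picked once its values were known. The planned ranking of members by level per kilobase was not made, since no lengths were used. The orthologous exon totals set the precision, and intervals cover counting error only where stated.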

Additional observations from a re-analysis of the deposited data

Results flagged for a closer look

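Among the 7 virus-positive animals of 2018, NDUFA4L2 was at 122 CPM in 4X0354, far from the next animal at 60.8 CPM. This gap was 0.594 of the range of the group, above Dixon's 95% critical value of 0.568 for a group of this size. That critical value assumes normally distributed values, whereas CPM was used without a log. In log2 CPM 4X0354 was at 6.94, the next animal at 5.93 and the lowest at 4.23, and the check was not run on that scale. The group values checked were 3: NDUFS5 and NDUFA4L2 in the virus-positive animals and NDUFAF8 in the earlier Yerkes animals. Chance marks about 1 in 20 groups of normally distributed values. 4X0354 is also the animal with the widest spread between subunits. Over 94 tests of whether a member's slope on RIN or age differed between the extraction years, 0 passed by edgeR and none had an unadjusted p under 0.05.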

How the results depend on the processing

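The call of NDUFAF8 between extraction years held under 6 other settings (log2 fold change 0.43 to 0.68, adjusted p 8.37e-05 to 0.0278), and in all 38 fits that left out 1 animal (0.54 to 0.69), with 1 member called in each. Among Yerkes animals only, 0 members passed. For RIN, DESeq2 called 3 members where edgeR called 0. For sex, age and virus, 0 members were called under every alternative run, including the 38 fits for sex without 1 animal each. The median dispersion of the assembly factors moved from -0.51 to -0.12 with TMM library sizes, and that of the subunits from -0.02 to 0.253; over all settings they ran from -0.62 to -0.12 and from -0.12 to 0.253. The median pairwise r of the subunits fell from 0.812 to 0.731 without TMM and to 0.714 without 537 and Little_R. For NDUFA3, NDUFB10 and NDUFS5, DESeq2 was the setting that passed the RIN slope. The cause of these shifts was not tested. Slopes that differ between years (RIN or age by extraction year) and the ranges of levels without Little_R or without both outlying animals were added after seeing the data, and no gene passed for a difference of slope by edgeR (1116 and 1243 genes at an unadjusted p under 0.05). No paired analysis was possible because the animals form 1 group and carry no shared replicate numbers.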
